A study of Mus musculus with 9 samples.

Results

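Pre-mRNA splicing factor genes were examined in the juvenile testis without Spo11, the gene of the topoisomerase-like enzyme whose DNA breaks start meiotic recombination. A gene was a member if it had a probe with exactly 1 platform symbol that began with Srsf, Lsm or Prpf and a digit, with Snrp or Hnrnp, or with Sf3a or Sf3b. This gave 58 genes (89 probes) of 7117 genes with such a probe: 17 hnRNP genes, 9 snRNP protein genes, 9 PRP factor genes, 8 SR protein genes, 8 SF3A and SF3B subunit genes and 7 LSm genes. Each of 9 two-colour spotted cDNA arrays carried whole-testis RNA of 1 Spo11-/- sample and 1 wild-type sample. On 4 arrays both were 15 days old and the knockout was labelled with Cy3. On the other 5 arrays both were 12 days old, with the knockout in Cy5 on 3 arrays (replicates 1, 4 and 5) and in Cy3 on 2 arrays (replicates 2 and 3). The design text gives different mouse pairs from 1 litter. Nothing states whether any arrays shared RNA, so p-values measure the spread between arrays, part of which may be technical.

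Introns are removed by the spliceosome, which is built on each intron from small nuclear ribonucleoproteins (snRNPs). Each snRNP holds a small nuclear RNA in a ring of Sm proteins, or of LSm proteins in the case of U6, together with proteins of its own. SF3A and SF3B belong to the U2 snRNP and hold the branch site. PRP factors, first named in yeast mutants, act in the U4/U6.U5 tri-snRNP and in the catalytic steps. SR proteins mostly help exons to be recognised, and hnRNP proteins coat nascent RNA and often act against them. The testis is known for its large amount of alternative splicing, which changes as spermatocytes pass through meiosis.

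The values are log2 ratios of the 2 channels, and the direction of the 15-day ratios is not settled. Values below 0 mean more RNA in the knockout if the ratio was taken as Cy5 over Cy3, and less RNA in the knockout if it was taken as knockout over wild type. The 15-day arrays correlated with each other across all probes (r = 0.38 to 0.60), but below 0 (r = -0.38 to -0.11) with the 12-day arrays of the same dye orientation, and probes are not independent replicates. The 15-day values therefore keep the sign they were deposited with, and no direction relative to wild type is read from them. Every 15-day array had the knockout in Cy3, so at that age an effect of dye cannot be told apart from one of the knockout. This limit holds for every 15-day call below. A ratio holds no level, so the tissue could not be checked through its markers, and in whole testis fewer cells of a type and less RNA per cell cannot be told apart. Arrays held values for 72.1% to 91.3% of their probes. All 58 members had a value on each 15-day array, and 49 to 57 had one on a 12-day array.

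At 15 days most splicing factor genes lay slightly below 0. The mean of the 4 arrays was below 0 for 44 of 58 members, 75.9%, against 53.7% of 6958 genes tested, and the median was -0.17 over the members and -0.02 over all genes tested. All 4 arrays were below 0 for 26 members, 44.8%, where 23.1% of genes with 4 values were. All 4 were above 0 for 2 members, against 14.4% of those genes. Past the threshold (limma adjusted p under 0.05, over 12198 features, which are genes and probes without 1 symbol) were 6 members, all below 0: Hnrnpl, Hnrnpa0, Snrpe, Snrpd1, Lsm8 and Lsm14b. That is 10.3% of the members, and 7.2% of all genes tested passed below 0, so the share of calls was close to the background. No member passed above 0, where 4.04% of genes did. At an adjusted p under 0.1, 12 members passed below 0, which is 20.7% of them, against 12.6% of genes.

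**Figure D1:**
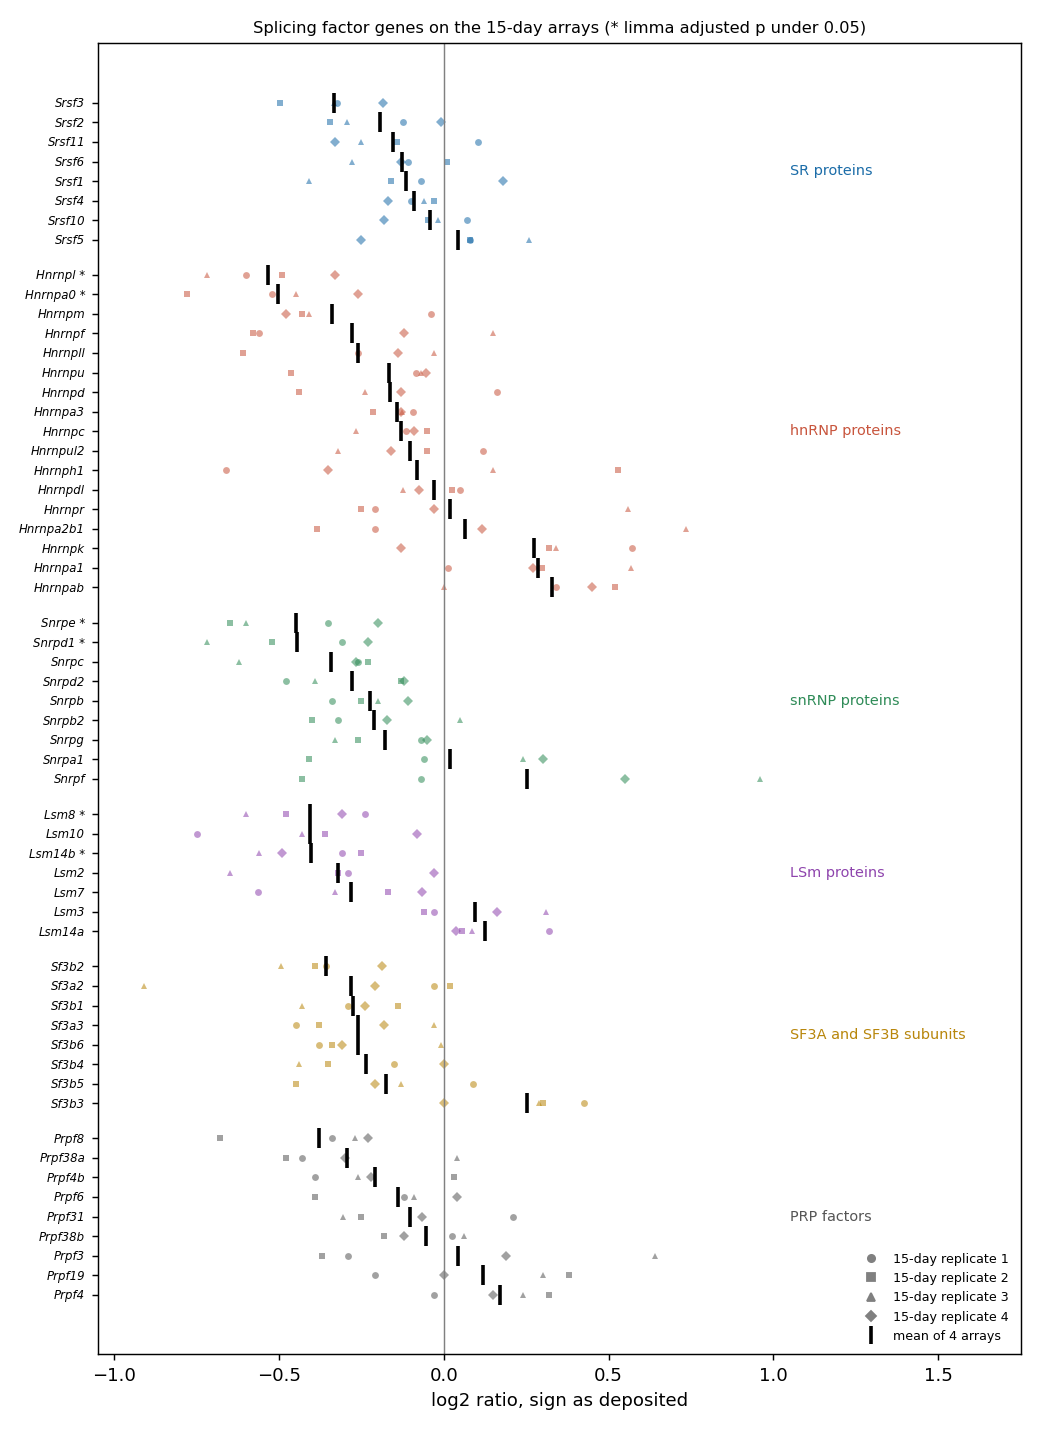
Log2 ratio (horizontal axis, sign as deposited) of each of the 58 members on the 4 arrays at 15 days, by family, with the mean of the 4 arrays as a black bar and an asterisk for an adjusted p under 0.05. The 6 marked members lie between -0.78 and -0.20 on every array, and 44 of 58 means lie below 0.

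The calls changed when single arrays were left out and when a dye term was added. Without 15-day replicate 1 or 3 no member passed, where 5.37% and 3.24% of features did. Without replicate 2 Hnrnpl alone did (5.19% of features), and without replicate 4 there were 5 members (8.62%, against 10.3% of features). These shares of features count both directions. The ratios of the 6 members lay between -0.60 and -0.34 over these fits. Without replicate 1 they lay between -0.51 and -0.43, with limma adjusted p from 0.054 to 0.079. In a fit of both ages with a dye term, 7 of 52 members passed if every ratio was read as Cy5 over Cy3 (the label reading). That is 13.5%, against 7.75% of 9851 features in either direction. The 7 were Hnrnpa0, Hnrnpl, Lsm8 and Snrpd1, which are 4 of the 6 members above, with Hnrnpm, Prpf8 and Srsf3. Snrpe did not pass in this fit (limma adjusted p = 0.20), and Lsm14b had too few values to be tested in it. All 7 members lay below 0 in the deposited sign, which under the label reading means more RNA in the knockout. When the 15-day sign was turned no member passed, and 17 features did. The median of the members, by contrast, stayed between -0.21 and -0.15 with each array left out in turn.

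Among the hnRNP genes, Hnrnpl was the lowest member of all. Its protein binds CA-rich RNA and regulates exon inclusion. Its log2 ratios were -0.60, -0.49, -0.72 and -0.33 on 15-day replicates 1 to 4, a mean of -0.54 ± 0.17 (SD, n = 4), equal to a 1.45-fold ratio (SE 0.11, limma adjusted p = 0.017). Hnrnpa0, a binder of AU-rich elements, had -0.52, -0.78, -0.45 and -0.26, with a mean of -0.50 ± 0.22 (SD, n = 4) and a limma adjusted p = 0.025. Both genes were thus below 0 on every 15-day array, with replicate 4 nearest to 0.

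The rest of the hnRNP genes spread to both sides of 0 at 15 days, from -0.34 for Hnrnpm (limma adjusted p = 0.074) to 0.33 for Hnrnpab (adjusted p = 0.091), and the family median was -0.13. Hnrnpab, which binds RNA and single-stranded DNA, had 0.34, 0.52, 0.00 and 0.45 on replicates 1 to 4. Hnrnpa1, a repressor of exon inclusion, averaged 0.29 and was above 0 on all 4 arrays, but missed the threshold (adjusted p = 0.12). Hnrnpk, whose KH domains bind C-rich RNA, had 0.57, 0.32 and 0.34 on replicates 1 to 3 and -0.13 on replicate 4. Hnrnph1 had no single direction, with -0.66, 0.53, 0.15 and -0.35, and neither had Hnrnpf, with -0.56, -0.58, 0.15 and -0.12. Hnrnpr had -0.21, -0.25 and -0.03 on replicates 1, 2 and 4 but 0.56 on replicate 3. The proteins of Hnrnpf and Hnrnph1 both bind G-rich RNA. The means of 12 of 17 hnRNP genes were below 0, with 7 below 0 on every array.

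Among the snRNP protein genes 2 of 9 passed, both for subunits of the Sm ring. Snrpe had log2 ratios of -0.35, -0.65, -0.60 and -0.20 at 15 days, a mean of -0.45 ± 0.21 (SD, n = 4, limma adjusted p = 0.034). Snrpd1 had -0.31, -0.52, -0.72 and -0.23, a mean of -0.45 ± 0.22 (limma adjusted p = 0.036). Both had all 4 arrays below 0. Of the other Sm genes measured, Snrpd2 (-0.28), Snrpb (-0.23) and Snrpg (-0.18) were also below 0 on every array without passing. Snrpf was not: it had -0.07 and -0.43 on replicates 1 and 2, but 0.96 and 0.55 on replicates 3 and 4. Snrpc, of the U1 snRNP, averaged -0.34 (adjusted p = 0.068), and the U2 genes Snrpb2 and Snrpa1 averaged -0.21 and 0.02. The family median was -0.23 at 15 days, and on replicates 1 and 2 all 9 genes were below 0.

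The LSm genes had the lowest family median at 15 days, -0.32 over 7 genes, of which 2 passed. Lsm8, the subunit that marks the nuclear LSm ring on U6, had -0.24, -0.48, -0.60 and -0.31, a mean of -0.41 ± 0.16 (SD, n = 4, limma adjusted p = 0.038). Lsm14b had -0.31, -0.25, -0.56 and -0.49, a mean of -0.40 ± 0.15 (limma adjusted p = 0.037). Its product is an RNA-binding protein linked to stored and repressed mRNAs in the cytoplasm, not a subunit of the U6 ring. Lsm2 (-0.32) and Lsm7 (-0.28), which are ring subunits, were below 0 on all 4 arrays without passing, whereas the ring subunit gene Lsm3 averaged 0.09. Lsm10, which acts in the U7 snRNP for histone mRNA ends, averaged -0.41 but ranged from -0.75 to -0.08 and missed the threshold (adjusted p = 0.059). Lsm14a, the paralog of Lsm14b, averaged 0.13 and was above 0 on all 4 arrays.

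No SF3A or SF3B subunit gene passed at 15 days, although 7 of 8 means were below 0 and the family median was -0.26. Sf3b2 came nearest, with -0.36, -0.39, -0.49 and -0.19, a mean of -0.36 ± 0.13 (SD, n = 4, limma adjusted p = 0.0502). Sf3b1, the branch site subunit, had -0.29, -0.14, -0.43 and -0.24, a mean of -0.28 ± 0.12 (limma adjusted p = 0.10). Both were below 0 on every array. Sf3b3 alone had a mean above 0, with 0.42, 0.30, 0.29 and 0.00 (mean 0.25, adjusted p = 0.15). The mean of Sf3a2, -0.28, came largely from replicate 3, where it had -0.91, against -0.03, 0.02 and -0.21 on the other arrays. Sf3a3 and Sf3b6 each averaged -0.26 and were below 0 on every array, and Sf3b4 and Sf3b5 averaged -0.24 and -0.18, all without passing.

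No PRP factor gene passed at 15 days either, and the family median was -0.10. Prpf8, the central protein of the U5 snRNP and of the catalytic core, was the lowest, with -0.34, -0.68, -0.27 and -0.23, a mean of -0.38 ± 0.21 (SD, n = 4, limma adjusted p = 0.054), and was the only PRP gene below 0 on all 4 arrays. Prpf38a averaged -0.29 (adjusted p = 0.12). Prpf4b, a kinase gene, averaged -0.21, and the tri-snRNP genes Prpf6 and Prpf31 averaged -0.14 and -0.10. The U4/U6 genes Prpf4 and Prpf3 averaged 0.17 and 0.04, and Prpf19, a ubiquitin ligase of the spliceosome, averaged 0.12, none of them past the threshold. The mean of Prpf3 joins values of -0.29 and -0.37 on replicates 1 and 2 to 0.64 and 0.19 on replicates 3 and 4. Snrpf, Snrpa1, Lsm3 and Hnrnpa2b1 had the same split of signs.

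The 8 SR protein genes had a median of -0.12, and none passed at 15 days. Srsf3, which couples splicing to export and 3' end choice, had -0.32, -0.50, -0.33 and -0.18, a mean of -0.33 ± 0.13 (SD, n = 4, limma adjusted p = 0.061). Srsf2 had -0.12, -0.34, -0.30 and -0.01, a mean of -0.19 (adjusted p = 0.24). Srsf1 averaged -0.12, Srsf6 -0.13, Srsf4 -0.09 and Srsf5 0.04. Apart from Srsf3, no SR gene averaged further than 0.19 from 0.

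To show the start regions of genes past the threshold, the lowest such member of each of the 3 families that had one is given, from RefSeq on GRCm38.p6, running 5' to 3' on the gene's strand from 250 bases before the annotated start to 50 after it. Hnrnpl lies at chr7:28810640-28810939 on the plus strand, Snrpe at chr1:133610231-133610530 on the minus strand and Lsm8 at chr6:18848385-18848684 on the plus strand. Capitals mark matches, on either strand, to the searched motifs.
Hnrnpl: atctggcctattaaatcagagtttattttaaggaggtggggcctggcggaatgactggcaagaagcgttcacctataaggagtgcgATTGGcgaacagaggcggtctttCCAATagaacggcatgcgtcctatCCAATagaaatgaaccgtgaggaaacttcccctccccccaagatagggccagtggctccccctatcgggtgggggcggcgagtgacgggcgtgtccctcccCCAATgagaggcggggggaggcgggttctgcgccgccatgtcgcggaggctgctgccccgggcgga
Snrpe: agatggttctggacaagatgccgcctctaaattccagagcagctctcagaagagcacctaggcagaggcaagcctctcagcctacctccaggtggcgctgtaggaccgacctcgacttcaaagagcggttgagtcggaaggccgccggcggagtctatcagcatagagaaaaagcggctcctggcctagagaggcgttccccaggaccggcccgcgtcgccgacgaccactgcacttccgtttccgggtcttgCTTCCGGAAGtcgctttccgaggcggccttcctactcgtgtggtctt
Lsm8: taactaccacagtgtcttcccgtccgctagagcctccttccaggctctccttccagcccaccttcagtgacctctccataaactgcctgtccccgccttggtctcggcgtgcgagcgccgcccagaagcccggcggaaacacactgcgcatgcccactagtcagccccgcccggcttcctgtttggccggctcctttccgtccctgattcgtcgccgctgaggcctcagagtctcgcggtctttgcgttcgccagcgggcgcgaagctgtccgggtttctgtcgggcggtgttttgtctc

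The 6 motifs searched were CCGGAAG (the core bound by ETS factors), that of NRF1, AAGATGGCG (YY1), CCAAT (the box bound by NF-Y), CACGTG (an E-box bound by MYC and USF factors) and TATAAA (the TATA box). Hnrnpl holds 4 CCAAT matches, Snrpe holds 2 overlapping CCGGAAG matches on opposite strands just after its start, and Lsm8 holds none of the motifs. One of the Hnrnpl matches lies on the other strand and reads ATTGG. Of the 58 members 52 had a window in the table, and the others were Hnrnpll, Hnrnpul2, Snrpd1, Snrpb, Sf3b4 and Sf3b5. CCGGAAG occurred in 17 of the 52 windows, 32.7%, and in 11.9% of 17492 windows of protein-coding genes. The NRF1 motif occurred in 17.3% of members and 6.60% of protein-coding genes, and AAGATGGCG in 3.85% and 1.94%. The CCAAT box was found in 50% of members and 39.0% of protein-coding genes, the E-box in 7.69% and 7.90%, and the TATA box in 9.62% and 13.3%. The median window had 25 CpG dinucleotides among members and 13 among protein-coding genes. Among the 5 members past the threshold that had a window, CCGGAAG occurred in 1. These are descriptions of letters, and binding was not measured.

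Probes of 1 gene did not always give 1 sign. Of 18 members with 2 to 5 probes, 8 had 15-day probe means on both sides of 0, and the median gap between the highest and the lowest probe of a gene was 0.24. The widest gap was that of Hnrnpa2b1, with probe means of 0.67 and -0.32. One of its probes had no value on replicate 1, so the gene's value there rests on the other probe. Among the Srsf11 probes the means were -0.40, -0.35 and 0.28, and among those of Hnrnpu -0.38, -0.23 and 0.11. Both signs also occurred for Hnrnpa3, Hnrnpc, Hnrnpdl, Srsf10 and Lsm14a. The 3 probes of Sf3b2 (-0.58, -0.25 and -0.25) and of Srsf3 (-0.48, -0.31 and -0.21) lay on 1 side. The 6 members past the threshold had 1 probe each, so no second probe bears on them. Families of similar sequence and their processed pseudogenes can share signal on cDNA spots.

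**Figure D2:**
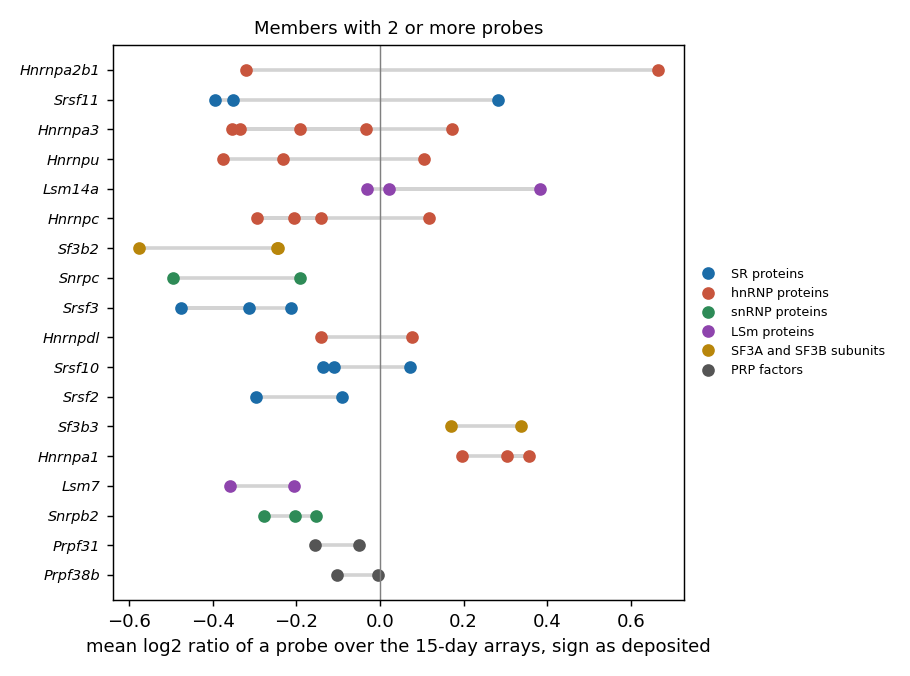
Mean log2 ratio at 15 days (horizontal axis, sign as deposited) of each probe of the 18 members with 2 or more probes, coloured by family and ordered by the gap between probes. The gap is widest for Hnrnpa2b1, from -0.32 to 0.67, and 8 genes have probes on both sides of 0.

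At 12 days no member passed, nor did any of 10075 features (limma, 0% called), and 1 of 52 members tested (6 had too few values, Hnrnpul2, Lsm3, Lsm14b, Prpf3, Prpf4b and Sf3b5) had an unadjusted p under 0.05, 1.92% of members where 1.92% of genes did. That was Hnrnph1, a binder of G-rich RNA. As deposited it had -0.65 and -0.42 on replicates 1 and 4, with knockout in Cy5, and 0.19 and 0.36 on replicates 2 and 3, with knockout in Cy3, and no value on replicate 5. Read as Cy5 over Cy3, this is a knockout over wild-type log2 ratio of -0.41 (SE 0.10, limma adjusted p = 1.0), with all 4 arrays in 1 direction.

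The other members of smallest p at 12 days were Srsf1 (0.20, SE 0.09), Hnrnpk (-0.31, SE 0.14), Hnrnpa0 (-0.20, SE 0.10) and Sf3a2 (-0.15, SE 0.08), as log2 knockout over wild type, each with a limma adjusted p = 1.0. Srsf1, the founding SR protein, had 0.24, 0.03 and 0.04 with knockout in Cy5, and -0.44 and -0.15 with knockout in Cy3, so that its sign followed the knockout's dye on all 5 arrays. Sf3a2 did so too, in the opposite direction. Of the 46 members with all 5 values, 7 had 1 direction throughout, where 4.61% of genes did: Hnrnpa3, Hnrnpdl, Lsm7 and Sf3a2 below 0, and Srsf1, Hnrnpab and Prpf38b above. Their differences were small, from -0.15 to 0.20. The coefficient was below 0 for 33 of 52 members, 63.5%, against 54% of genes. The median over the 52 members was -0.06, against -0.01 over all genes tested, and the 6 family medians ran from -0.09 (snRNP proteins) to 0.07 (PRP factors).

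**Figure D3:**
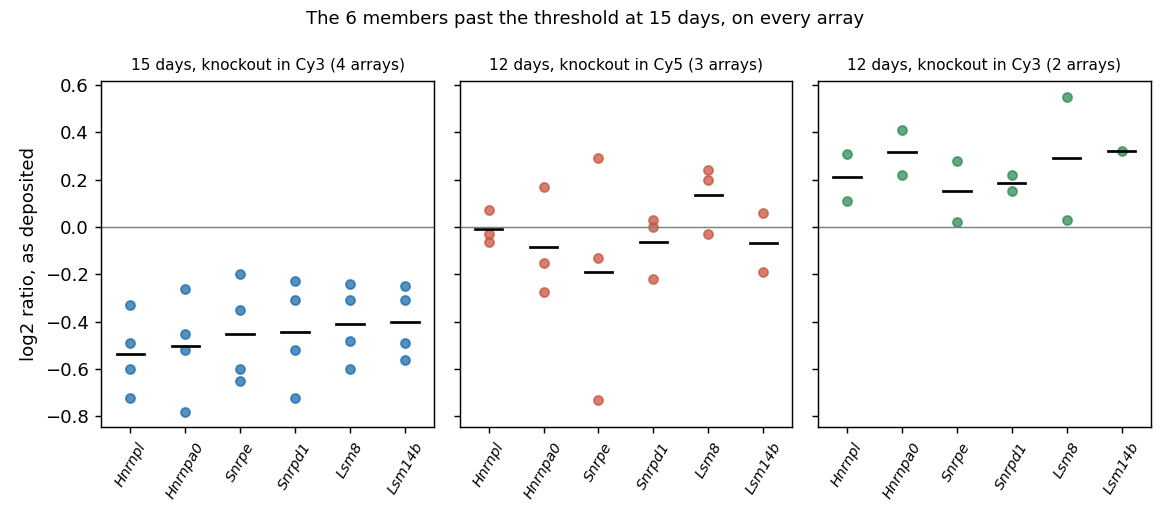
Log2 ratios as deposited (vertical axis) of the 6 members past the threshold at 15 days, on the 15-day arrays (left), the 12-day arrays with knockout in Cy5 (middle) and those with knockout in Cy3 (right), with bars for means. All 24 values at 15 days, by which the genes were picked, lie below 0. All 11 values on the 12-day arrays of the same dye orientation lie above 0.

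The 6 members past the threshold at 15 days did not have the same sign on the 12-day arrays of the same dye orientation. Their 24 values at 15 days lay between -0.78 and -0.20, and it was by these values that the genes were picked. The 11 values at 12 days with knockout in Cy3, from replicates 2 and 3 only, all lay between 0.02 and 0.55. With knockout in Cy5, 9 of 17 values were below 0. Over all members, 172 of 232 values were below 0 at 15 days, and 32 of 110 at 12 days with knockout in Cy3. Among all genes, 3745 of 6820, 3830 of 6955, 3840 of 6971 and 3577 of 6979 lay below 0 on 15-day replicates 1 to 4. On 12-day replicates 2 and 3, 2816 of 6141 and 3158 of 6839 did. The balance of signs thus moved the same way over all genes, but less.

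The family medians differed between arrays of 1 dye orientation at 12 days, of the 6 families most for the snRNP protein genes. All 9 of these lay below 0 on replicate 1, with a median of -0.24, while 7 of 9 lay above 0 on replicate 5, with a median of 0.29, although the knockout was in Cy5 on both. Snrpe, for instance, had -0.73 on replicate 1 and 0.29 on replicate 5, and Snrpg had -0.56 and 0.72. The medians of 70 cytosolic ribosomal protein genes moved the same way, -0.87 on replicate 1 and 0.42 on replicate 5. So did, by less, those of the proteasome subunit genes (-0.12 and 0.28), the SF3A and SF3B subunit genes (0.00 and 0.16) and the PRP factor genes (0.02 and 0.15). The medians went the other way for the hnRNP genes, with 0.07 and -0.15, the SR genes, with 0.24 and 0.05, and the LSm genes, with 0.30 and 0.06 (4 and 7 genes with a value). Replicate 1 had a value for 72.1% of probes and replicate 2, of the same range of title numbers, for 72.9%. On replicates 3 to 5, of another range, the share was 86.8% to 90.1%. Replicate 5 had the strongest correlation between successive spots of the 9 arrays (r = 0.65). With each value set against the median of its neighbours (100 spots to either side), the snRNP medians were -0.19 and 0.27. The part of spot position, dye and RNA quality in this difference was not otherwise tested.

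**Figure D4:**
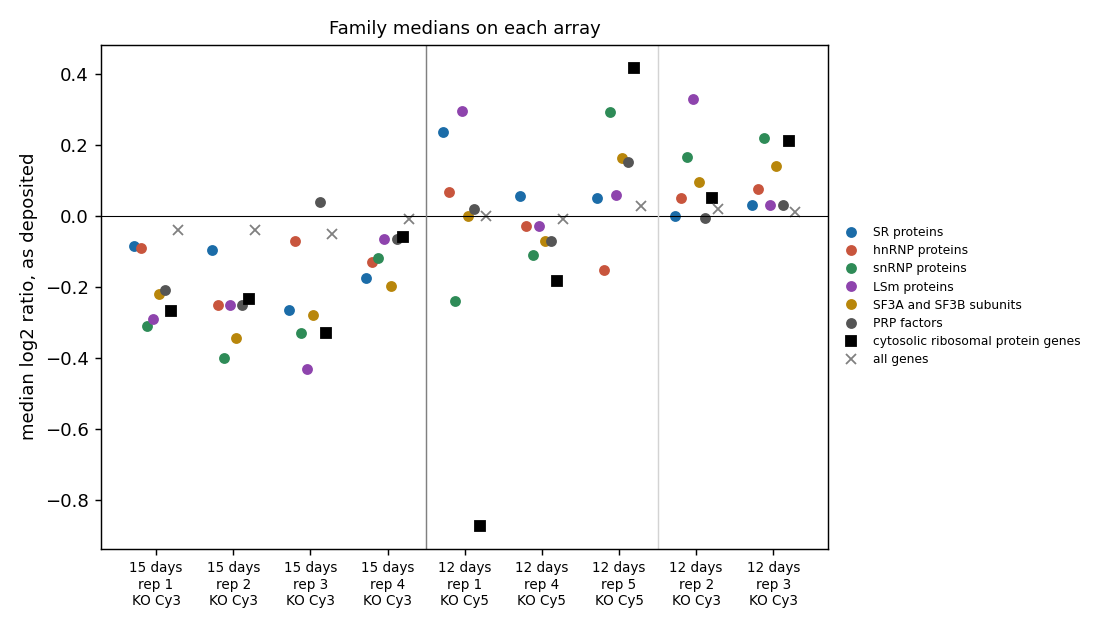
Median log2 ratio as deposited (vertical axis) of the 6 families, of cytosolic ribosomal protein genes (squares) and of all genes (crosses) on each of the 9 arrays, grouped by age and by the dye of the knockout (KO). At 15 days every family median but 1 lies below 0, while the snRNP median is -0.24 on 12-day replicate 1 and 0.29 on replicate 5.

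The difference in the knockout effect between 15 and 12 days was tested under both readings. It rests on the 15-day arrays and, at 12 days, on replicates 2 and 3, the arrays of like orientation. The title numbers of the 15-day arrays form a range apart from those of the 12-day arrays. A difference between ages thus cannot be told apart from one between these ranges of arrays. Replicates 2 and 3 at 12 days also come from different ranges. Under the label reading 1 of 52 members passed, Hnrnpl, whose log2 knockout over wild-type ratio was higher at 15 days by 0.75 (SE 0.16, limma adjusted p = 0.043). That is 1.92% of members, against 1.69% of genes above 0 and 2.41% in either direction. Hnrnpa0 fell just short at 0.82 (SE 0.19, adjusted p = 0.0501). The call for Hnrnpl was lost without any one of 15-day replicates 1, 2 or 3 or 12-day replicates 2, 3 or 4, and after subtraction of neighbouring spots. With the 15-day sign turned no member passed (0% of genes called), 2 had an unadjusted p under 0.05 (6.01% of genes), and Hnrnpl lay at -0.33 (SE 0.16, adjusted p = 0.79). The smallest p under that reading were those of Sf3b3 (0.39, SE 0.17) and Hnrnpk (0.58, SE 0.26), followed by Srsf1 (-0.41), Hnrnpd (-0.45) and Hnrnpl, with limma adjusted p from 0.74 to 0.79. The difference was above 0 for 39 of 52 members under the label reading (54.5% of genes) and below 0 for 36 of 52 with the sign turned (55.2% of genes). The median difference of the members was 0.26 under the label reading and -0.10 with the sign turned, against 0.04 and -0.03 over all genes.

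Splicing genes outside these name families had a median close to that of the members at 15 days. Of 118 such genes on a list of spliceosome, SR-related, SMN complex and regulatory factors, 86 were tested, with a median of -0.15, and 8 passed below 0 and 3 above. The lowest was Cwc22 (-1.09, SE 0.25), which links the spliceosome to the exon junction complex, although its 4 arrays ran from -1.98 to -0.02. Coil, which organises the Cajal bodies where snRNPs mature, ran from -1.16 to -0.24 over the 4 arrays, a mean of -0.85 (SE 0.15, limma adjusted p = 0.011). The mRNA export adaptor gene Alyref averaged -0.62 (SE 0.11), Ptbp2, a splicing repressor of neurons and germ cells, -0.55 (SE 0.12), and Cwc15 -0.47 (SE 0.11).

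Past the threshold above 0 was Rbmx, an X-linked gene of an hnRNP-like protein, with 0.46, 0.42, 0.51 and 0.53, a mean of 0.48 (SE 0.10, limma adjusted p = 0.018). The other genes of the list past the threshold above 0, named after their values were seen, were Celf2 (0.53, on 3 arrays) and Syncrip (0.39). The share of the list that passed below 0 was 9.3%, near the 7.2% of all genes.

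Other housekeeping groups also lay below 0 at 15 days. Of 70 cytosolic ribosomal protein genes 9 passed below 0 and none above, with a median of -0.22. Of 32 proteasome subunit genes 3 passed below 0 and 1 above (median -0.13), and of 49 translation factor genes 1 passed below 0 and 2 above (median -0.08). The median of the splicing factor genes, -0.17, lay within the range of the medians of these groups, and the difference between groups was not tested.

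Markers of germ cell stages lay on both sides of 0 at 15 days. They were chosen with earlier results of these data known, so the number that passed is no independent evidence. All 4 measured of 15 listed markers of pachytene spermatocytes passed below 0, where 7.2% of genes did: Slc2a3 (-2.16), Rsph1 (-1.73), Lyar (-1.56) and Ccnb1ip1 (-0.58). Their median was -1.48, -2.06, -1.80 and -1.0 on replicates 1 to 4. Replicate 4 also had the smallest SD of the 15-day arrays over all probes, 0.31, against 0.39 to 0.47 on the others. Of 8 spermatogonial markers 3 passed above 0, where 4.04% of genes did: Etv5 (1.20), Ccnd1 (0.42) and Uchl1 (0.36). None of 9 Sertoli cell markers passed, and 1 of 5 Leydig cell markers did, Nr5a1 at 0.43. Of 4 peritubular and fibroblast markers Lum passed at -0.57 and Col1a1 at 0.41, and of 3 macrophage and blood vessel markers Lyz2 passed at -0.61 and Cdh5 at 0.78. Their part in the values of the splicing factor genes was not tested. The lowest of the 58 members, at -0.54, was nearer to 0 than any of the pachytene markers.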

How the data were processed

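The data were 2-colour cDNA array ratios of whole testis, 4 arrays at 15 days and 5 at 12 days, each of 1 knockout and 1 wild-type sample. The deposited values are log2 ratios, with the base assumed. Per the series' design text, the authors used a GenePix 4000A scanner and GenePix 3.0 software, then centred each array on its median. Each of the 9 arrays was centred on its median once more here, so its median is 0 by construction. Values called as deposited are after this centring, with their sign not turned. How background was treated, and which channel is on top, is not stated.

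Of 16128 probes, 9604 had 1 platform symbol, 213 several and 6311 none. The annotation is old. RefSeq (GRCm38.p6) held the Entrez ID of 98.9% of the probes with 1 symbol. Probes of a gene were averaged, and other probes kept as features. Tests used lmFit and eBayes of limma 3.58.1 under R 4.3.3 (two-sided, Benjamini-Hochberg over all features, threshold 0.05): at 15 days the mean against 0 (at least 3 values), at 12 days a knockout coefficient with a dye intercept (at least 4 values), and for the ages a joint fit of the 9 arrays in which both ages share the dye term. The label reading takes a ratio as Cy5 over Cy3.

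Replicates are numbered in order of deposit. Members and lists were chosen with earlier results of these data known. Named genes are the members past the threshold, the 2 of smallest 15-day p per family, the 5 of smallest p where none passed, members with probes of both signs, and up to 6 passing genes of each other list. Further members are given to complete a family. The tests were checked on simulated arrays. Signal over background is not in the files. The number of arrays sets the precision.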

Additional observations from a re-analysis of the deposited data

Results flagged for a closer look

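Hnrnpu had 1 of its 4 arrays at 15 days apart from the rest: -0.46 on replicate 2, with the nearest other array at -0.08. It was the only such case among 51 groups of arrays of named members, where chance alone gives about 1 in 20. The knockout effect on Hnrnpl differed between 15 and 12 days under the label reading, by 0.745 on the log2 scale. With the 15-day sign turned the difference did not pass. Age cannot be told apart from the range of title numbers of the arrays.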

How the results depend on the processing

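At 15 days 6 members passed the threshold, 10.3% against 12.4% of all features. Shares of features in this section count calls in either direction and include probes without 1 symbol. Below 0 alone, 5.37% of features and 7.2% of genes passed in the main fit. With quantile normalization 10 members passed (17.2% against 13.1%), and with single probes 11 (19% against 14.8%). With the median of neighbouring spots subtracted 13 passed (22.4% against 15.2%). By a SAM-type statistic at a 5% false discovery rate the number was 13, or 22.4%, all below 0, against 21.8% of features in either direction. At 1% the number was 1 (1.72% against 4.6%). It was 0 when 1.5-fold and an adjusted p under 0.01 were both asked for (1.98% of features), and 0 in the joint fit of both ages with the 15-day sign turned (0.173%). Every member called in these fits lay below 0. All 6 members kept their calls with quantile normalization, neighbour subtraction, single probes and the 5% SAM-type statistic. Leaving out each 15-day array gave 0 to 5 calls, and 3.24% to 10.3% of features. The median of the members, -0.17, was -0.25 with single probes, where the probe of smallest p stands for a gene. Sf3b2, just short of the threshold, passed under 7 of 15 alternatives and Prpf8 under 5. Of the called members, Lsm8 and Snrpe lost their calls under 7 of 15 alternatives, and Hnrnpa0 and Snrpd1 under 6. Lsm14b lost its call under 6 of 13 and Hnrnpl under 4 of 15. At 12 days no member passed under any alternative run, and the median was 0.038 with the values as deposited and no dye term, where Srsf1 (-0.055), Hnrnpa0 (0.075) and Sf3a2 (0.069) changed sign. For the age difference under the label reading, where 1 of 52 members (1.92%) and 2.5% of features passed, 2 members passed with complete values (4.35% against 3.39% of features), 5 with scaled arrays (9.62% against 5.4%), 7 with quantile normalization (13.5% against 8.19%), 4 with neighbour subtraction (7.69% against 4.96%) and 2 with single probes (3.85% against 3.09%). With each array left out 0 to 3 passed, and 0.0529% to 6.66% of features. Its median was 0.33 with single probes. With the sign turned the median was -0.0061 with scaled arrays, and no member passed under any alternative run. The causes were not tested beyond these settings. Each array sets 1 knockout against 1 wild-type sample, so the ratios already pair the samples by array. No further pairing between arrays was possible, because the replicate numbers only follow the order of deposit.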
